A study of Homo sapiens with 4 samples.

Results

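The miRNAs hsa-miR-221-3p, hsa-miR-221-5p and hsa-miR-222-3p (written below without the species prefix), made from a pair of neighbouring hairpins on chromosome X, were taken by name as 3 of the 2366 human miRNA rows counted in K562 cells after knockdown of ERH. K562 is an established human chronic myeloid leukaemia line, and ERH is a partner protein of the Microprocessor, which frees miRNA hairpins from their primary transcripts by cutting. All cells carried dCas9-KRAB, a cutting-dead Cas9 with a repressor domain that shuts down the promoter named by a guide RNA, and a guide RNA against ERH under doxycycline control. The ERH knockdown group held 1 library of each of 2 guide RNAs after 5 days with 0.05 µg/ml doxycycline, and the control group held 1 library of each of the same polyclonal lines without doxycycline. Doxycycline itself and loss of ERH cannot be told apart in this design, and small-RNA libraries hold no reading of ERH mRNA itself.

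miR-221-3p and miR-222-3p are known as repressors of the receptor tyrosine kinase KIT and of the cell cycle inhibitors CDKN1B and CDKN1C. In human erythroid culture they decline as progenitors mature, which releases KIT, and in several solid tumours they are raised. A miRNA finds its targets mainly through its seed, the bases at positions 2 to 8, and each hairpin can give a 5p and a 3p arm, of which usually one is kept and the other degraded.

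The mature 3p sequences are shown because the members share a seed, given here in capitals (RefSeq, GRCh38.p14, 5′ to 3′).
miR-221-3p: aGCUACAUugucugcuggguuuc
miR-222-3p: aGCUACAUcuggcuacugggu
They had the first 8 bases in common and 75% identity over an alignment of 24 columns. Among 2370 mature human names in the RefSeq table, these 2 were the only ones with this seed, so their reads together were the pool of this seed in these cells as far as that table goes. The other arm of miR-222 is shown with its own seed in capitals, because it had a row in the count tables but no reads.
miR-222-5p: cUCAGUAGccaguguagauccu
The hairpins are shown with the 3p miRNA in capitals, since the neighbour and arm ratios below compare their products.
MIR221: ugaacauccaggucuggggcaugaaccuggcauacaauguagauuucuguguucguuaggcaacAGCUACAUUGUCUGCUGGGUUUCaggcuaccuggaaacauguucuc
MIR222: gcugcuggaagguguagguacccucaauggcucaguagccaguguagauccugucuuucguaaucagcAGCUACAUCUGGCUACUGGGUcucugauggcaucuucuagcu
MIR221 lies at chrX:45746157-45746266 and MIR222 at chrX:45747015-45747124 on the minus strand, 748 bases apart, with MIR222 upstream. Both fell within an intron of 1 of the 2 annotated transcripts of the long noncoding RNA MIR222HG, and the other transcript did not span them (GENCODE 29, GRCh38). The hairpins had 60.7% identity over 122 aligned columns.

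The predicted fold of MIR222 was near the middle of the hairpins with tested miRNAs, and that of MIR221 was on the less stable side. RNAfold gave -53.8 kcal/mol for MIR222 and -46.5 kcal/mol for MIR221, each 110 bases long. Per base, 46.0% of 309 hairpins were more stable than MIR222 and 74.8% were more stable than MIR221. The motif UGU, which helps the Microprocessor find the apical loop, occurred in the 30 bases before the 3p arm of both hairpins, on the RNA strand, as it did in 54.8% of 786 hairpins searched. CNNC, a motif of the 3′ flank, did not start 16 to 18 bases after the annotated 3p end in either, and it did so in 47.6% of the 82 hairpins annotated far enough to be searched. CNNC stood nearer, starting at base 4 of that flank in MIR221 and at bases 10 and 13 in MIR222.

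Depth was 2227374 and 2393565 miRNA reads for knockdown of guide RNA 1 and 2, and 1430434 and 2476700 for their controls. Each also held 2 added RNAs, frog miR-427 and fly miR-14, which took 1.96% to 3.13% of all counted reads. The erythroid miRNA miR-451a, which K562 cells are known to make, had at least 36108 reads in every library. Markers of other cell types were not all absent. The neural miR-124-3p had at most 1 read and the muscle miR-206 had 0. The neural miR-9-5p, however, had 419 to 884 reads, the epithelial miR-200c-3p 69 to 194 and the muscle miR-1-3p 1 to 8.

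Both 3p miRNAs were moderately abundant and close to equal, and the 5p arm of miR-221 was rare. miR-221-3p had 2868 and 3095 reads in the knockdown libraries of guide RNA 1 and 2, against 1798 and 3194 reads in the controls. miR-222-3p had 2727 and 2957 reads after knockdown and 1624 and 2845 reads in controls. miR-221-5p had 34 and 38 reads after knockdown and 18 and 39 reads in controls. In every library the order was therefore miR-221-3p, then miR-222-3p, then miR-221-5p, and the low read number of the control of guide RNA 1 went with its lower depth. miR-222-3p made up 48.7% (95% Wilson interval 47.4% to 50.1%) and 48.9% (47.6% to 50.1%) of the reads of both 3p miRNAs after knockdown, and 47.5% (45.8% to 49.1%) and 47.1% (45.9% to 48.4%) in controls, so their order was clear of counting error in the control libraries and not in the knockdown libraries. miR-222-5p was listed at 0 in each of the 4 libraries, where 3 reads would be 1.21 to 2.10 CPM (miRNA reads scaled to a common library total). Against 10153 reads of miR-222-3p over all libraries, a count of 0 allows the 5p arm up to 0.0295% of them, by counting error only.

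The place of each 3p miRNA within its own library, which needs no scaling, was a few ranks lower after knockdown. miR-221-3p ranked 71st and 69th by reads in the knockdown libraries and 64th and 63rd in the controls. miR-222-3p ranked 73rd in both knockdown libraries and 70th and 68th in the controls. The ranks of knockdown and control libraries did not overlap for either, as was so for 67.7% of the 464 miRNAs tested below, so this did not set the members apart. As shares of all miRNA reads, however, miR-221-3p was nearly level between groups and miR-222-3p was slightly higher after knockdown. The log2 ratio of the miR-222-3p share, knockdown over control, was 0.11 (95% counting interval 0.02 to 0.20) with guide RNA 1 and 0.10 (0.03 to 0.18) with guide RNA 2. For miR-221-3p it was 0.03 (-0.05 to 0.12) and 0.004 (-0.07 to 0.08). These intervals cover counting error only, and the fit with library size, given below, called neither. Reads with the shared seed made up 0.251% (95% Wilson interval 0.245% to 0.258%) and 0.253% (0.247% to 0.259%) after knockdown, against 0.239% (0.231% to 0.247%) and 0.244% (0.238% to 0.250%) in controls.

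Relative to the bulk of tested miRNAs, miR-221-3p and miR-222-3p fell after ERH knockdown, to 0.75 and 0.79 of control, and miR-221-5p had a value of like size with an error too wide for a call. Counts were scaled with TMM, which sets the typical miRNA level between libraries, and tested with edgeR's quasi-likelihood test over 464 miRNAs that passed a filter on low counts. All 3 members passed that filter. On this scale miR-221-3p had 1090 and 1130 CPM after knockdown and 1426 and 1541 CPM in controls, with no overlap. Its log2 fold change was -0.42 ± 0.06 (SE, 2 libraries per group; edgeR adjusted p = 5.39e-05), and its level was lower in knockdown with each guide RNA, by ratios of 0.764 and 0.733. miR-222-3p had 1036 and 1080 CPM after knockdown and 1288 and 1373 CPM in controls, again without overlap. Its log2 fold change was -0.33 ± 0.06 (edgeR adjusted p = 4.74e-04), with ratios of 0.804 and 0.786 within guide RNA 1 and 2. Without knockdown replicate 1 the call of miR-222-3p was lost (-0.31, edgeR adjusted p = 0.062). Fewer cells making these miRNAs and less of them per cell cannot be told apart in bulk RNA. Markers of epithelial, muscle, liver, neural and pluripotent cells were higher in sum after knockdown by library size. On that scale 58.8% of all tested miRNAs rose, and 40.1% rose with the added RNAs. Muscle, liver and pluripotent markers had at most 8 reads in a library, too few to show a change. The 9 of 11 markers with a row summed to 513 to 519 CPM by library size after knockdown and 384 to 409 CPM in controls. Of these, miR-206 and miR-302d-3p were at 0 in every library. Without miR-9-5p the sum was 143 to 148 CPM after knockdown and 81.2 to 90.9 CPM in controls. Of the 3 tested, the epithelial miR-200c-3p (186 to 194 reads after knockdown, 69 to 116 in controls) rose by 0.35 ± 0.14 (edgeR adjusted p = 0.044), and it was also called with library size (0.80) and with the added RNAs (1.03). The epithelial miR-141-3p was at 0.21 ± 0.17, not called with TMM and called with library size (0.66) and with the added RNAs (0.90), and the neural miR-9-5p was at -0.20 ± 0.09, not called with TMM and called with library size (0.25). Their part in the results was not tested.

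miR-221-5p had 12.9 and 13.9 CPM after knockdown, against 14.3 and 18.8 CPM in controls. The groups did not overlap, but its log2 fold change of -0.35 ± 0.26 was not called (edgeR adjusted p = 0.28). With so few reads the counting interval of the ratio of knockdown to control ran from -0.97 to 0.68 on the log2 scale with guide RNA 1 and from -1.08 to 0.20 with guide RNA 2, so a change of the size seen in miR-221-3p was not detectable at this depth.

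These calls stand in a table where changes were common. Of the 464 tested miRNAs, 25.2% fell and 50.9% changed in either direction, and for 76.3% the TMM-scaled libraries of the groups did not overlap. A call or a lack of overlap therefore did not by itself set the 2 members apart from other miRNAs. From the lowest log2 fold change upwards, miR-221-3p ranked 93rd, miR-221-5p 111th and miR-222-3p 114th of 464, and the median of all was 0.06.

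**Figure D1:**
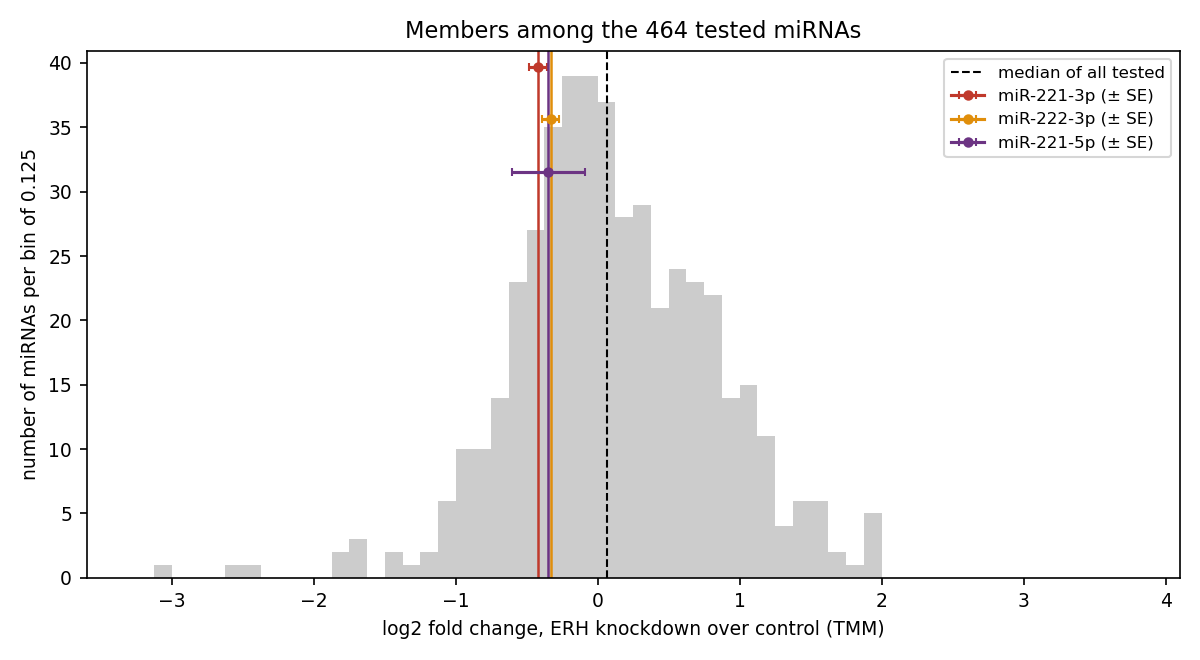
Histogram of log2 fold changes of ERH knockdown over control (x axis, TMM scaling) for the 464 tested miRNAs, with the number of miRNAs per bin on the y axis; coloured lines and points mark the members with their SE, and the dashed line is the median of all. The members lie together at -0.42, -0.35 and -0.33, left of the median of 0.06.

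The direction of all 3 members turned with the scaling between libraries. With library size alone the fitted log2 fold change was 0.02 for miR-221-3p, 0.10 for miR-221-5p and 0.11 for miR-222-3p, and none was called (edgeR adjusted p = 0.83, 0.76 and 0.20), while 58.8% of tested miRNAs rose and 8.84% fell. By library size miR-221-3p had 1290 ± 3.84 CPM after knockdown and 1273 ± 23.1 CPM in controls, and miR-222-3p had 1230 ± 7.84 CPM after knockdown and 1142 ± 9.47 CPM in controls (SD, n = 2). The median of all tested miRNAs lay 0.44 higher with library size than with TMM. A change of scale shifts all miRNAs by nearly the same amount. That the members stood below the median in both scalings follows from this and is no added evidence.

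Set against the added RNAs, every member was higher after knockdown with both guide RNAs, and none was called. miR-221-3p had 54.7 and 71.2 reads per 1000 frog miR-427 reads after knockdown, and 44.4 and 62.6 in controls. For miR-222-3p these were 52.0 and 68.0 after knockdown and 40.1 and 55.8 in controls. The values of the groups overlapped for both, although within each guide RNA the knockdown library was the higher one. With both added RNAs as the scale, the fitted log2 fold changes were 0.27 ± 0.38, 0.33 ± 0.39 and 0.36 ± 0.38 for miR-221-3p, miR-221-5p and miR-222-3p (edgeR adjusted p = 0.58, 0.50 and 0.45), against a median of 0.75 for all tested miRNAs, of which 40.1% rose and 1.72% fell. The added RNAs themselves did not keep 1 ratio. There were 7.78 and 9.82 frog reads per fly read in the knockdown libraries and 7.14 and 7.18 in the controls, so per fly miR-14 read the ratio of knockdown to control for miR-221-3p was 1.34 with guide RNA 1 and 1.56 with guide RNA 2, against 1.23 and 1.14 per frog read. How much of each was added is not given in the sources used here.

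**Figure D2:**
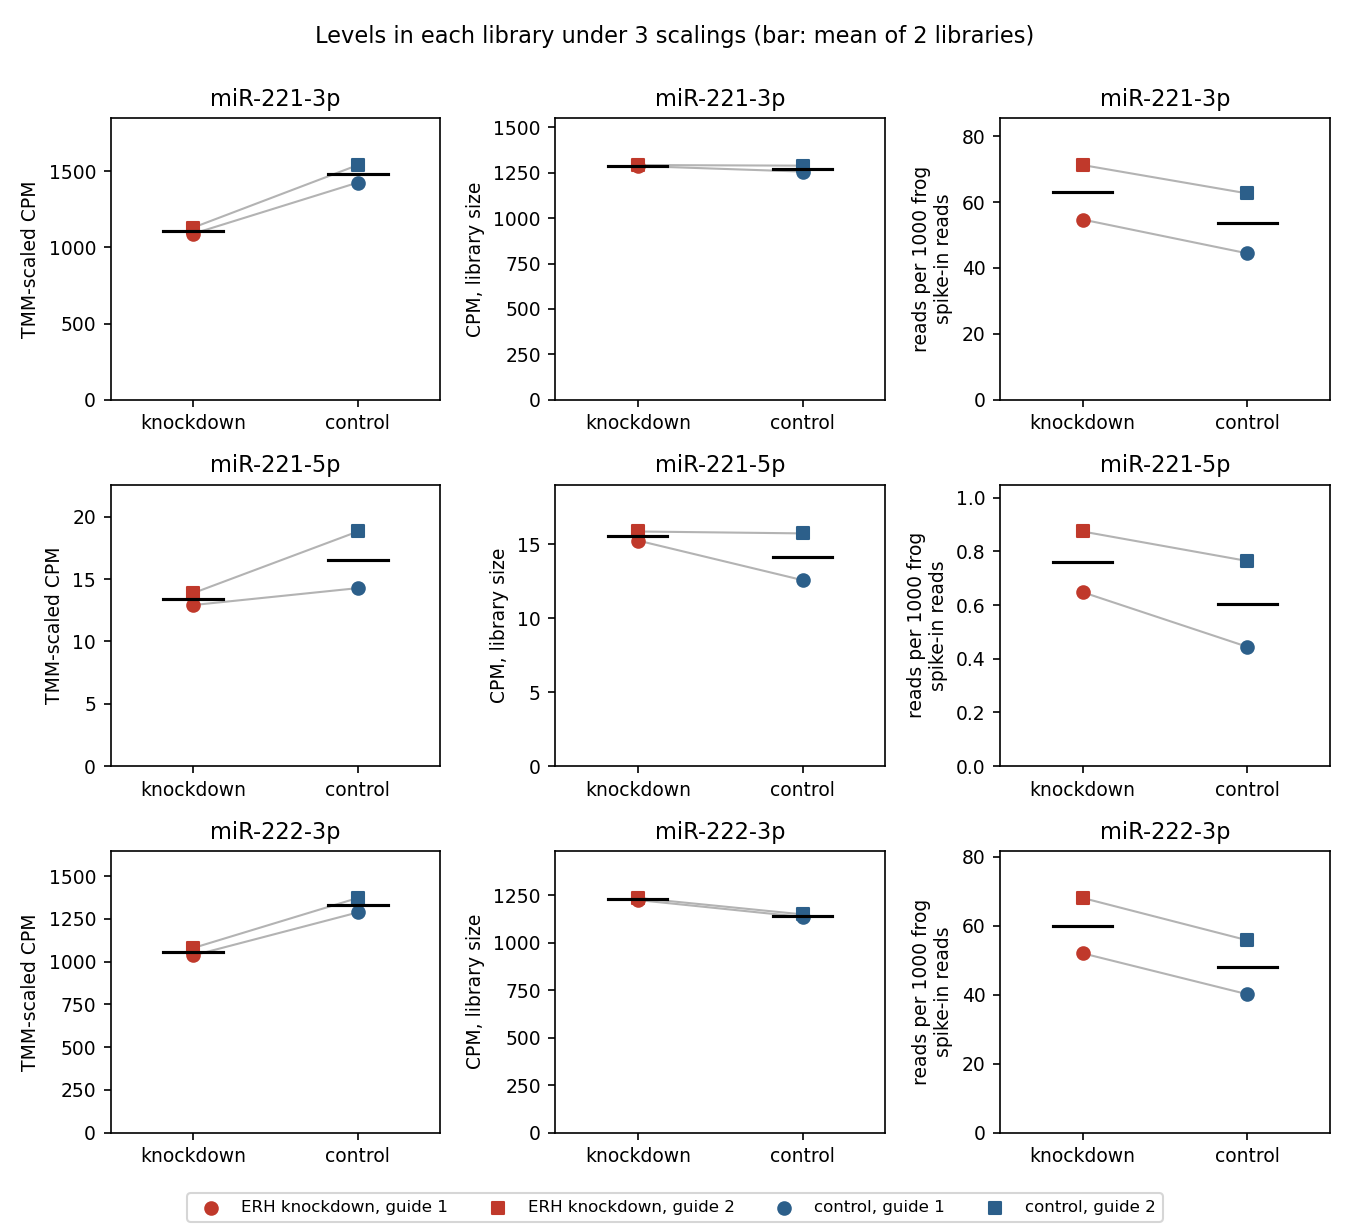
Levels of the members in each library (red, ERH knockdown; blue, control; circles, guide RNA 1; squares, guide RNA 2; grey lines join the libraries of 1 guide RNA; bars, mean of 2 libraries) as TMM-scaled CPM, CPM by library size and reads per 1000 frog spike-in reads. miR-221-3p is lower after knockdown in the left column (1090 and 1130 against 1426 and 1541 CPM), nearly level in the middle and higher within each guide RNA in the right.

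**Figure D3:**
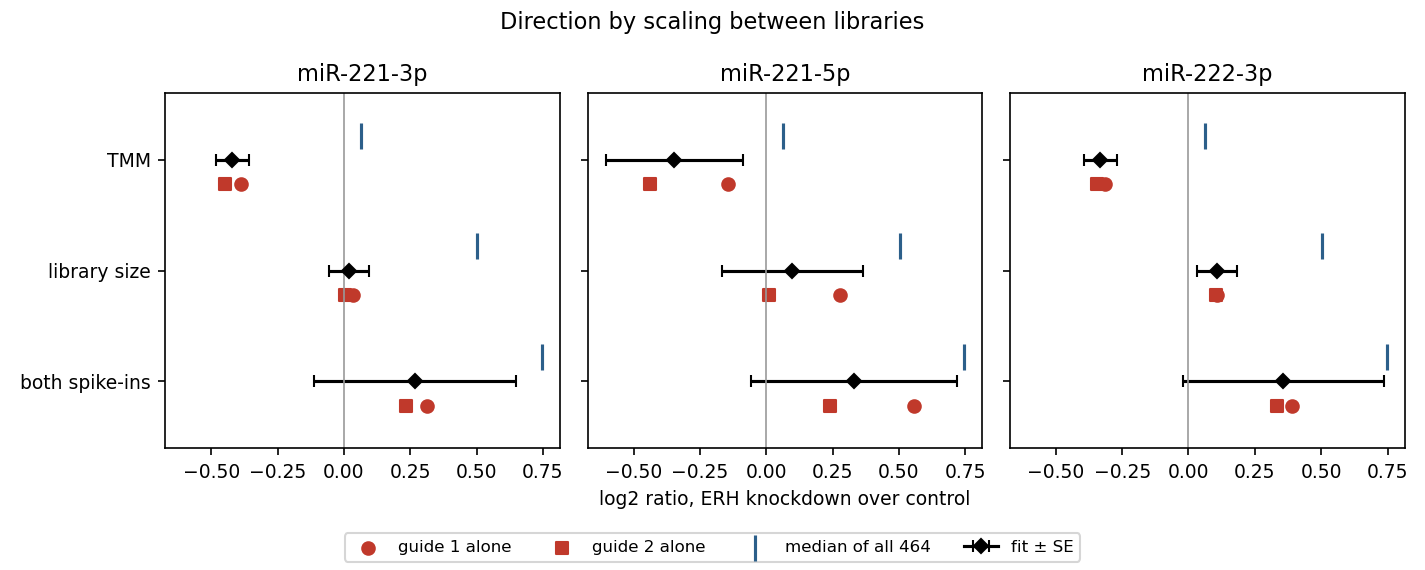
Log2 ratios of ERH knockdown over control (x axis) for each member under 3 scalings (rows): black diamonds are the fit with its SE, red points the guide RNAs alone, and blue ticks the median of all 464 tested miRNAs. The members move from negative to positive down the rows. They stay left of the median in each, because a change of scale shifts all miRNAs nearly alike.

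The neighbour ratio, which compares counts inside a library, was slightly higher after knockdown and not called. There were 0.951 and 0.955 reads of miR-222-3p per read of miR-221-3p after knockdown, and 0.903 and 0.891 in controls. The groups did not overlap, as was so for 49.4% of 336 pairs of neighbouring hairpins. Hairpins recur across these pairs, and 261 of the pairs lie on chromosome 19. Group means of the ratio were 0.953 ± 0.003 after knockdown and 0.897 ± 0.009 in controls (SD, n = 2). An exact two-sided permutation test gave p = 0.333, the smallest that 2 libraries against 2 allow. The log2 change of the ratio was 0.07 with guide RNA 1 (95% counting interval -0.05 to 0.20) and 0.10 with guide RNA 2 (-0.002 to 0.20), so each interval included no change. Fitted with limma over the 336 pairs, the change was 0.09 ± 0.15 (SE; 95% interval -0.34 to 0.52; limma adjusted p = 0.82), and 0% of pairs were called. The number of pairs called moved with the choice of pairs and libraries, to 32 of 94 pairs within 3 kb, 42 of 336 without control replicate 1 and 63 of 336 without control replicate 2, and the miR-222/miR-221 pair was in none of these. With a prior variance that follows read depth the interval was -0.05 to 0.23 (limma adjusted p = 0.50), while 14.0% of pairs were called. The fall of miR-222-3p and that of miR-221-3p were therefore not shown to differ. An unequal change of more than 0.52 on the log2 scale lies outside the first interval.

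The arm ratio of miR-221 rested on few 5p reads and showed no change that could be called. There were 84.4 and 81.4 reads of miR-221-3p per read of miR-221-5p after knockdown, against 99.9 and 81.9 in controls, and the groups overlapped, whereas 49.5% of arm pairs did not. The 5p arm made up 1.17% (95% Wilson interval 0.84% to 1.63%) and 1.21% (0.88% to 1.66%) of miR-221 reads after knockdown, and 0.99% (0.63% to 1.56%) and 1.21% (0.88% to 1.64%) in controls, intervals that overlap throughout. The log2 change of the ratio of 3p to 5p was -0.12 ± 0.16 (SE; 95% interval -0.54 to 0.31; limma adjusted p = 0.76 over 109 hairpins with both arms tested, 0% of which were called). With the prior variance that follows read depth, 14.7% of arm pairs were called and miR-221 was not (limma adjusted p = 0.85). Called arm pairs numbered 9 of 109 with the guide RNA as a block and 6 of 109 with a pseudocount of 5. At a mean of at least 10 CPM they numbered 6 of 84, and miR-221 was in none of these. An exact permutation test of the 4 libraries gave p = 0.667 (two-sided). Without control replicate 1, whose 18 reads of miR-221-5p were the fewest, the change was 0.02. The 3p arm held more reads in 43 of these 109 hairpins, miR-221 among them, and 10 hairpins had a more one-sided split than miR-221, at 98.8% in its 3p arm against a median of 90.7% in the main arm. Hairpins whose minor arm had too few reads to test, such as MIR222, are left out here. This place therefore makes the split of miR-221 look more unusual than it may be.

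**Figure D4:**
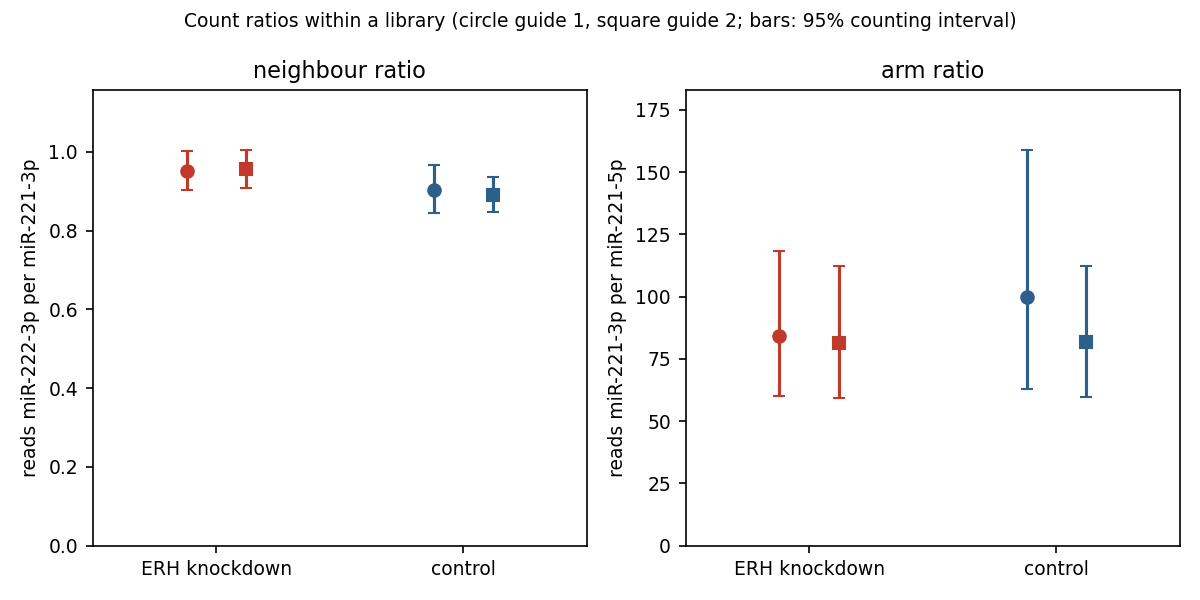
Count ratios in each library, for miR-222-3p per miR-221-3p (left) and miR-221-3p per miR-221-5p (right), with 95% counting intervals (red, ERH knockdown; blue, control; circle, guide RNA 1; square, guide RNA 2). The neighbour ratio lies between 0.891 and 0.955 in every library, and the arm ratio between 81.4 and 99.9 with wide intervals.

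The miR-222/miR-221 pair was next set beside other neighbouring hairpins whose miRNAs share a seed. Of 241 neighbour pairs with both sequences in the table, 19 shared a seed, and 11 of these lay outside chromosome 19. The absolute log2 change of the ratio was 0.09 for miR-222-3p over miR-221-3p, with 4 of the 19 pairs at a smaller value and 14 at a larger one, and the median was 0.40. miR-17-5p over miR-20a-5p, of the miR-17~92a-1 polycistron, changed by 0.08 ± 0.15. The largest value was that of miR-181a-5p over miR-181b-5p, 1.25 ± 0.18 (limma adjusted p = 0.13). Some of these miRNAs have hairpins in several places. miR-16-5p entered with hairpins on chromosomes 13 and 3, and miR-29b-3p with hairpins on chromosomes 1 and 7. MIR181A1 and MIR181B1 are likewise named as numbered copies. The count of such a miRNA pools its hairpins, so its ratio is not that of a single neighbour pair. No pair of the 19 was called in the limma fit, so these are values and not differences between pairs. The gap of 748 bases between MIR222 and MIR221 was longer than that of 52 of the 336 neighbour pairs, 261 of which lie on chromosome 19. These pairs join all hairpins of a chain, not only adjacent ones, and their median gap was 16509 bases. This place therefore does not show that 748 bases is a short gap for adjacent hairpins.

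**Figure D5:**
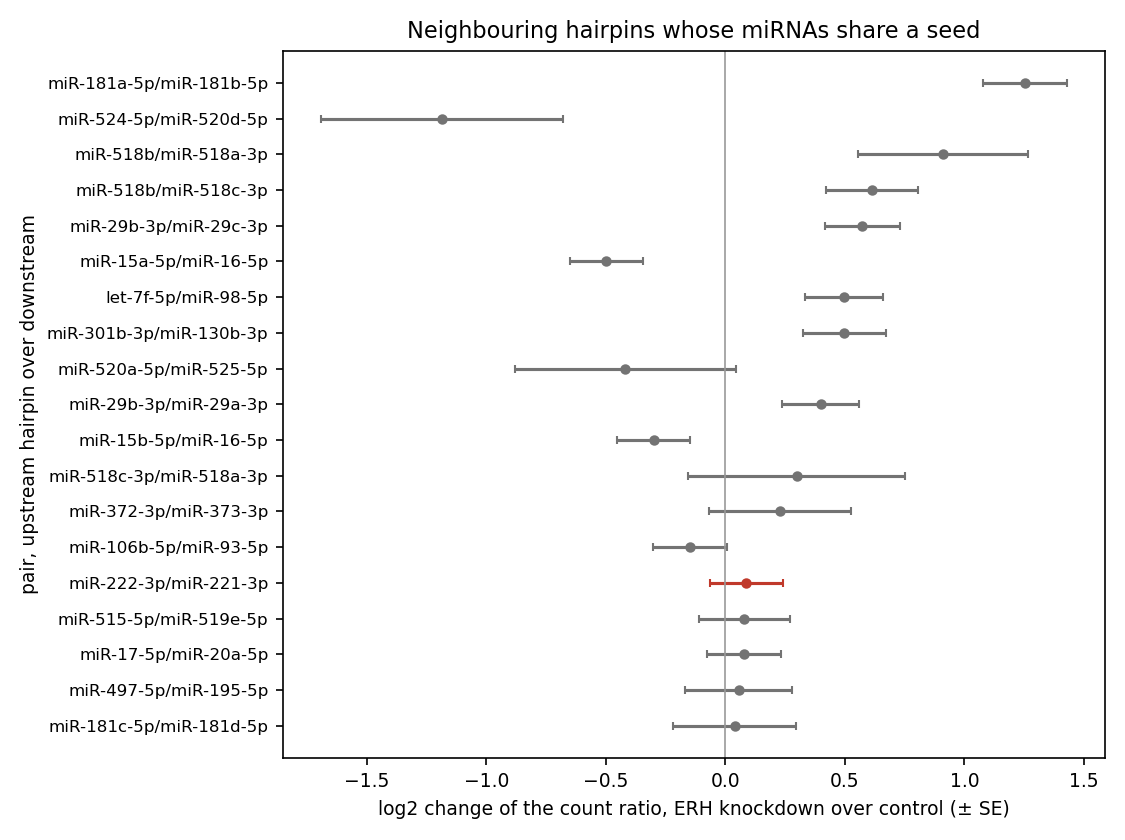
Log2 change of the count ratio, ERH knockdown over control, with its SE (x axis) for the 19 neighbouring hairpin pairs whose miRNAs share a seed (y axis, upstream hairpin over downstream), in order of absolute change; the miR-222-3p/miR-221-3p pair is red. That pair is at 0.09, and the values run from -1.19 to 1.25. Counts of miRNAs with hairpins in several places are pooled over those hairpins.

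Other miRNAs known to repress KIT also fell relative to the bulk where they were called. Besides the members, 4 of 6 such miRNAs with a row were tested, of which 3 fell and 0 rose, where 25.2% of all tested miRNAs fell and 25.6% rose, with a median log2 fold change of -0.41 against 0.06 for all tested miRNAs. miR-193b-3p had 506 and 476 TMM-scaled CPM after knockdown and 651 and 650 CPM in controls (-0.41 ± 0.07, edgeR adjusted p = 2.51e-04). miR-193a-3p, which represses KIT in acute myeloid leukaemia, had 200 and 212 CPM after knockdown and 266 and 275 CPM in controls (-0.39 ± 0.09, edgeR adjusted p = 0.0020). Both had values of 0.03 to 0.05 with library size and 0.28 to 0.30 with the added RNAs, uncalled, like miR-221-3p. miR-34a-5p, a target of p53, fell by 1.81 ± 0.34 on 11 and 10 reads after knockdown and 20 and 26 reads in controls, and stayed lower and called with library size (-1.37) and with the added RNAs (-1.16). miR-218-5p was at -0.41 ± 0.30 and not called. miR-494-3p had 3 reads in all and miR-137 had 0. The list was drawn up with earlier results of these libraries known, so it is no independent evidence of a direction.

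Among 463 other tested miRNAs, that with the pattern most like miR-221-3p over the 4 libraries was miR-193a-3p, with miR-452-5p almost level. Likeness was the distance between log2 CPM centred on each miRNA's mean, which was 0.06 for miR-193a-3p, 0.06 for miR-452-5p, 0.07 for miR-199b-5p, 0.08 for miR-30e-5p and 0.08 for miR-17-5p, against a median of 0.63. These 5 had TMM log2 fold changes of -0.46 to -0.39, so the measure picked miRNAs with a like change between groups. A link to miR-221-3p was not tested. miR-222-3p stood 7th by this measure, at 0.09, and miR-221-5p 60th, at 0.24. The hairpins of the 5 nearest miRNAs lie on chromosomes 17, X, 9, 1 and 13, and miR-452 is not a neighbour of MIR221.

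miRNAs known to target CDKN1B or CDKN1C, the other main targets of the members, went both ways. Of 6 tested, 3 fell and 2 rose (25.2% and 25.6% of all tested miRNAs), and with library size 4 rose and 0 fell (58.8% and 8.84% of all). Those that fell were miR-148a-3p (-0.38 ± 0.05), miR-92b-3p (-0.31 ± 0.06) and miR-25-3p (-0.23 ± 0.06), and with library size these 3 were positive, miR-25-3p called at 0.21. miR-152-3p, which has the seed of miR-148a-3p, rose by 0.55 ± 0.17 and miR-181a-5p by 0.38 ± 0.14, and both also rose with library size and with the added RNAs. miR-24-3p was at -0.11 ± 0.05, uncalled, and rose with library size (0.33).

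Of the miRNAs besides the members that decline in erythroid maturation, only miR-223-3p and miR-24-3p had enough reads to test. Of these 2, 1 fell and 0 rose, beside 25.2% and 25.6% of all tested miRNAs. The one that fell was miR-223-3p, by 0.54 ± 0.05 (-0.10 with library size and 0.15 with the added RNAs, uncalled). With library size 1 of the 2 rose, miR-24-3p, and 0 fell, beside 58.8% and 8.84% of all. miR-155-5p had at most 1 read in a library and miR-150-5p at most 3. Of 8 miRNAs that rise in erythroid maturation, 2 rose, both arms of miR-144, and 4 fell relative to the bulk, with a median of -0.14, beside 25.6% and 25.2% of all tested miRNAs. With library size 6 of the 8 rose and 1 fell, beside 58.8% and 8.84% of all. Of 46 other tested miRNAs made only from chromosome X, 6 rose and 15 fell, with a median of -0.10, beside 25.6% and 25.2% of all tested miRNAs. With library size 23 rose and 7 fell (58.8% and 8.84% of all), and with the added RNAs 11 rose and 1 fell (40.1% and 1.72% of all).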

How the data were processed

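Small RNAs of 4 K562 libraries, 2 of ERH knockdown and 2 controls, were gel-purified from TRIzol RNA, per the labels. The authors deposited unnormalized counts of reads, 1 whole number per mature miRNA. Not given in the sources used here are trimming, aligner, miRNA annotation, genome build and how shared reads were assigned. Spike-in rows stayed out of library sizes. Counts were filtered with filterByExpr (minimum count 10, total 15; 99.9% of reads kept), scaled with TMM and tested with edgeR 4.0.16 in R 4.3.3 without a block. Calls are at a Benjamini-Hochberg adjusted p under 0.05. Count ratios (pseudocount 0.5) were fitted with limma 3.58.1 over arm pairs and over hairpins chained within 10 kb on 1 strand. Lists are described by counts and medians, with no set test.

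Replicates are numbered by guide RNA, each its own polyclonal line, which pairs the libraries by design, although deviations of paired libraries from their group means had a correlation of -0.11 across miRNAs. Each line and condition had 1 culture, so p-values cover the spread among these 4 libraries alone. No library was a duplicate, since within-group counts varied beyond sampling (chi-square over its degrees of freedom was 4.72 in knockdown and 10.7 in control). Reads are not known to carry molecular identifiers, so intervals and zero-count limits cover counting error only.

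Sequences are from RefSeq, which held 413 of the 464 tested miRNAs, and hairpins from GENCODE 29 (2363 of 2366 names matched). Folds came from RNAfold 2.7.2 and plots from matplotlib 3.10.9. The members, lists and tests were chosen with earlier results of these data known. Named miRNAs are the members, miR-222-5p, the 5 nearest patterns, list members and sharers of the seed; others named were chosen after their values were seen. Tests were checked on simulated counts. Alternatives were a block, DESeq2 1.42.0, other scalings, filters, pseudocounts, prior variance and neighbour distances, leaving out the most abundant miRNA, and leaving out each library; chosen after seeing the data were the crossed pairing and each spike-in alone.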

Additional observations from a re-analysis of the deposited data

Results flagged for a closer look

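The count of miR-222-3p per miR-221-5p changed in opposite directions with the 2 guide RNAs, by -0.17 on the log2 scale with guide RNA 1 and by 0.09 with guide RNA 2. With 80.2 and 77.8 after knockdown against 90.2 and 72.9 in controls, both counting intervals included no change (-0.999 to 0.659 and -0.556 to 0.742). The difference between the guide RNAs was not tested.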

How the results depend on the processing

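The scaling between libraries turned the sign of all 3 members, and none was called there. For miR-221-3p, miR-221-5p and miR-222-3p the log2 fold change was 0.019, 0.10 and 0.11 with library size, 0.27, 0.33 and 0.36 with both spike-ins, 0.23, 0.30 and 0.32 with frog miR-427 alone, and 0.55, 0.62 and 0.64 with fly miR-14 alone. The replicate block (guide RNA) changed no call of a member or ratio, at -0.42, -0.32 and -0.33 for the members, -0.12 for the arm ratio and 0.09 for the neighbour ratio, and called 230 miRNAs, against 236 without it. DESeq2 called 146 miRNAs (47 up, 99 down), fly miR-14 alone 145 (144 up), library size 314 (273 up, 41 down) and both spike-ins 194 (186 up, 8 down), against 119 up and 117 down with TMM. The crossed pairing, tried because of the correlation of -0.11, called 241. Leaving out 1 library gave 117 to 195 calls, with 117 lacking knockdown replicate 1 and 140 lacking control replicate 2. It gave -0.48 to -0.39 for miR-221-3p (edgeR adjusted p 1.63e-04 to 0.043), -0.49 to -0.11 for miR-221-5p, -0.38 to -0.31 for miR-222-3p (lost without knockdown replicate 1, at -0.31), -0.25 to 0.016 for the arm ratio (positive without control replicate 1) and 0.08 to 0.10 for the neighbour ratio. A group left with 1 library is assumed to vary like the other. The cause of these shifts was not tested. All other alternatives run kept direction and call. Depth limits the 5p arm of miR-221, with 18 to 39 reads a library.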
